A study of Drosophila melanogaster with 6 samples.

Results

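These were 101 genes of Drosophila wing discs that already had transcripts in wild-type discs and whose level was at least doubled in dLsd1 mutant discs. They were chosen from the values themselves. Each had a level of at least 1 CPM (counts of a gene per 1000000 counts of its library) in every wild-type library, a mean over the mutant libraries of at least 2 times the wild-type mean, and every mutant library above every wild-type library. Of the 17471 genes in the tables, 7725 reached 1 CPM in each wild-type library, 122 of these were at least doubled and 119 of the 122 also had no overlap between the genotypes. Of the 119, 18 were set aside by name (krimp, piwi, qin, Ada, SPE, Tep2, Cpr64Aa, Cpr66D, Cyp6a17, GstD9 and 8 antisense or long non-coding RNAs), which left the 101. The difference between the genotypes is therefore a description of how they were chosen, and no test of it is given.

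dLsd1, encoded by Su(var)3-3, is a demethylase that removes methyl groups from lysine 4 of histone H3, a mark of active promoters and enhancers. It acts with the corepressor CoREST, and fly mutants are known for the loss of gene silencing and for sterility. The wing disc is the larval epithelium that forms the wing and much of the thorax of the adult, and it carries with it tracheal branches, muscle precursors and attached blood cells.

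RNA was sequenced from the wing discs of female third-instar larvae at the wandering stage, raised at 25 °C, in 3 wild-type and 3 dLsd1 mutant libraries made from 30 discs each. Wild-type discs came from w1118, whose background was inbred but not isogenised. Mutant discs carried dLsd1ΔN, a null deletion, on both chromosomes. The deletion arose between piggyBac insertions in dLsd1, and its stock is balanced. Isogenised lines of the allele were also made, and which stock gave the RNA is not stated in the sources used here, so the deletion and other differences between the stocks cannot be told apart. The labels do not say whether replicates came from separate crosses or days, so that p-values below measure only the spread between these samples, which may be technical.

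The libraries held 13960866 to 45909324 counts, with wild-type replicate 2 the lowest, where 1 CPM was 13.96 counts. The deleted gene, Su(var)3-3, held 2136, 676 and 2564 reads in wild-type replicates 1 to 3 but 7, 6 and 1 in mutant replicates 1 to 3. Wild-type replicate 3 stood apart. Its summed level over 18 wing disc epithelium genes was 3800 CPM against 2179 and 2275 in the other wild-type libraries, its neuron and glia genes summed to 87.1 CPM against 28.8 and 28.7, and its fat body genes to 62.8 CPM against 569 and 866. The mutant libraries lay between 2577 and 2966 CPM for the disc genes, between 44.1 and 59.6 CPM for the neuron and glia genes (VAChT at 0 throughout) and between 126 and 559 CPM for the 11 fat body genes. The neuron and glia sum hides ChAT, picked after its values were seen. It had 0.0478, 0 and 0.0436 CPM in wild-type and 4.06, 4.69 and 5.67 CPM in the mutant. Of the rest of that list, only Nrx-1 was apart between the genotypes, near the floor with at most 0.306 CPM. The sum of the disc genes also hides single genes, named here after their values were seen. Doc1 had 55.7, 58.6 and 55.2 CPM in wild-type and 42.8, 43.0 and 44.5 CPM in the mutant. ara and Doc2 were also lower in every mutant library. pdm2 was higher in every one, with 70.7, 75.1 and 86.5 CPM in wild-type and 107, 111 and 118 CPM in the mutant. In such bulk samples fewer cells of a type and less RNA per cell cannot be told apart.

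The 101 genes were mostly weakly expressed. Their median wild-type level was 4.45 CPM, against 49.0 CPM for all 7725 genes at 1 CPM or more, and their median mutant level was 13.3 CPM against 48.9 CPM. The ratio of the mutant to the wild-type mean had a median of 2.66 and ran from 2.00 to 36.1, where the median over the 7725 genes was 0.986. It lay below 2.5 for 42 genes, from 2.5 to 3 for 27, from 3 to 4 for 21, from 4 to 5 for 6, from 5 to 10 for 2 and above 10 for 3. The lowest mutant library was at least 1.5 times the highest wild-type library in 90 of the 101. In 40 genes at least 1 wild-type library held under 50 counts, the lowest being 14, and such values carry a large counting error.

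**Figure D1:**
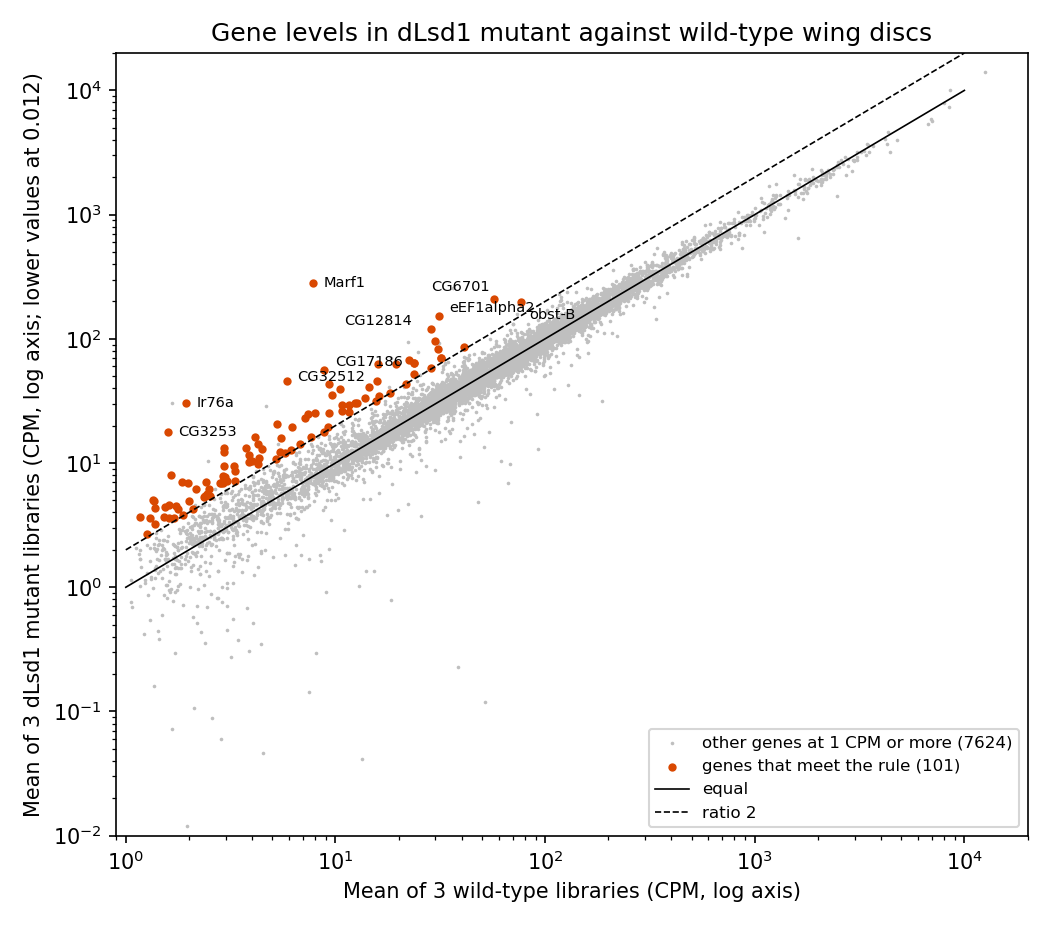
Mean level in the 3 wild-type libraries (x axis, CPM, log scale) against the mean in the 3 dLsd1 mutant libraries (y axis, CPM, log scale) for every gene at 1 CPM or more in each wild-type library, with the 101 genes as orange points and lines for equal levels and for a ratio of 2. Marf1 stands farthest above the line of equal levels, at a ratio of 36.1, and most of the orange points lie below 10 CPM in wild-type.

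Genes with a known role in the germline held both the largest ratio and several others. Marf1 (FBgn0039972; 2L, 22308755 to 22368796), a regulator of messenger RNAs in oocyte meiosis, had 10.7, 5.95 and 6.77 CPM in wild-type and 222, 267 and 357 CPM in the mutant libraries. Its ratio was 36.1 ± 14.8 (the SD combines the spread of both groups, n = 3 each), and its lowest mutant library was 20.7 times its highest wild-type library. Per kilobase of exon it was among the 4 highest of the 101 genes in the mutant, at 52.6 CPM per kb, having been at 1.46 CPM per kb in wild-type.

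The other germline genes were low in both genotypes. corolla (FBgn0267967; X, 17629791 to 17632047), a component of the synaptonemal complex, had 1.87, 1.79 and 1.26 CPM in wild-type and 6.02, 7.49 and 10.4 CPM in the mutant, a ratio of 4.85 ± 1.67. mtsh, whose product acts on the mitochondria of spermatids, had 1.15, 1.36 and 3.07 CPM in wild-type and 6.64, 6.29 and 8.15 CPM in the mutant. Both were separated without overlap, as the rule requires, although mtsh in wild-type replicate 3 was more than 2 times its level in the other wild-type libraries.

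del, which encodes Deadlock, a partner of Rhino at piRNA clusters, had 5.14, 4.08 and 19.6 CPM in wild-type and 31.7, 32.95 and 41.2 CPM in the mutant. Its 3 wild-type libraries had a coefficient of variation of 90.4%, the largest of all 101 genes, and replicate 3 alone was near the mutant range. bam, the differentiation factor of germline stem cells, was at the edge of detection with 1.1, 1.65 and 1.05 CPM in wild-type and 1.77, 4.24 and 2.09 CPM in the mutant. Mutant replicate 2 was high and mutant replicate 1 lay just above the highest wild-type library, and without mutant replicate 2 the ratio of bam was 1.53, under the minimum of the rule. The 9 germline marker genes together, bam among them, summed to 9.95 to 11.2 CPM in wild-type and 11.1 to 15.1 CPM in the mutant, so the ranges overlapped.

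A gene of chemosensation had the second largest ratio. Ir76a (FBgn0260874; 3L, 19799278 to 19803427), an ionotropic olfactory receptor of the antenna, had 1.22, 1.72 and 2.9 CPM in wild-type and 26.5, 29.2 and 35.4 CPM in the mutant, a ratio of 15.6 ± 7.29. The mutant libraries were close to each other, whereas wild-type replicate 3 was the highest of the wild-type libraries, and without it the ratio was 20.6. Obp56a, an odorant binding protein, had 8.73, 8.88 and 10.4 CPM in wild-type and 42.3, 43.3 and 43.2 CPM in the mutant, and its mutant libraries differed least of all 101 genes, with a coefficient of variation of 1.27%. ppk29, a subunit of the degenerin and epithelial sodium channel family, had 4.26, 4.51 and 15.3 CPM in wild-type and 20.3, 22.8 and 32.5 CPM in the mutant. Here wild-type replicate 3 lay close to the lowest mutant library, and the ratio of 3.14 became 5.75 without it.

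Of the genes listed as chemosensory or odorant binding, 50 that were not among the 101 were tested and 1 was upregulated and 2 were downregulated, at a log2 fold change above 0.6 in size and an adjusted p below 0.1 by edgeR. Over all 10841 genes tested 4.32% were upregulated and 2.23% downregulated, 6.55% in all. The median of these 50 log2 fold changes was 0.29, against -0.02 over all genes. Obp73a held no read in any wild-type library (0 counts) but 25, 18 and 24 in the mutant ones (adjusted p = 0.00938 by edgeR), while Gr64a was lower, with 18.6, 19.3 and 24.7 CPM in wild-type and 10.5, 12.9 and 16.1 CPM in the mutant (log2 fold change -0.71, standard error 0.17, adjusted p = 0.0577). Or71a, an odorant receptor, was near the floor with wild-type counts of 3, 4 and 17 and mutant counts of 0, 1 and 1 (adjusted p = 0.0894 by edgeR).

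Among the 74 other ion channel genes tested, 8 were upregulated and 2 downregulated, with a median log2 fold change of 0.51. Most of the 8 were near the floor. Irk1, an inward rectifier potassium channel that was picked after its values were seen, was the best expressed, with 55.2, 39.8 and 68.1 CPM in wild-type and 91.3, 98.2 and 109 CPM in the mutant (log2 fold change 0.83, standard error 0.19, adjusted p = 0.0433). Of the degenerin family to which ppk29 belongs, rpk had 55.2, 36.2 and 26.4 CPM in wild-type and 10.97, 10.6 and 11.9 CPM in the mutant (log2 fold change -1.85, standard error 0.26, adjusted p = 0.00916) and ppk28 had 8.88, 9.31 and 8.67 CPM in wild-type and 4.57, 4.36 and 4.26 CPM in the mutant (log2 fold change -1.05, standard error 0.14, adjusted p = 0.00378), so both were lower in every mutant library. SK, a calcium-activated potassium channel, showed wild-type counts of 0, 1 and 1 and mutant counts of 12, 55 and 57 (adjusted p = 0.015 by edgeR). Of the same family 3 genes were called upregulated at the floor and are named here after their values were seen. ppk11 showed wild-type counts of 1, 0 and 2 and mutant counts of 8, 10 and 25 (adjusted p = 0.0515 by edgeR). ppk16 is annotated at the same position with nearly the same counts, so these cannot be told apart. ppk18 showed wild-type counts of 0, 1 and 1 and mutant counts of 6, 8 and 12 (adjusted p = 0.0975 by edgeR, or 0.119 with the replicate number as a block). The degenerin genes called thus lay on both sides. The sum of the neuron and glia markers, as given above, was highest in wild-type replicate 3, while ChAT was higher in every mutant library. The part of such cells in these values was not tested.

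Genes of the motile cilium were present at low levels. Dhc93AB (FBgn0013812; 3R, 21024580 to 21042499), an outer arm dynein heavy chain of the axoneme, had 2.78, 2.15 and 3.86 CPM in wild-type and 13.1, 11.5 and 14.8 CPM in the mutant, a ratio of 4.49 ± 1.44. With a long transcript its mutant level was 0.939 CPM per kb, one of the lower values of the set. Zmynd10, which assembles axonemal dyneins, had 1.41, 1.003 and 1.7 CPM in wild-type and 2.72, 3.18 and 3.72 CPM in the mutant, just inside the minimum of 1 CPM. The groups did not overlap in either gene, as the rule requires. Of the 15 other tubulin and axonemal dynein genes tested, 1 was upregulated and 1 downregulated, and their median log2 fold change was -0.14. alphaTub85E, an alpha tubulin, had 0.861, 0.86 and 0.958 CPM in wild-type and 2.18, 4.52 and 3.3 CPM in the mutant (log2 fold change 1.86, standard error 0.32, adjusted p = 0.0136), and Sdic2, an axonemal dynein intermediate chain gene with near-identical copies that can share reads, had 10.1, 7.09 and 8.32 CPM in wild-type and 1.8, 1.77 and 1.3 CPM in the mutant (log2 fold change -2.42, standard error 0.23, adjusted p = 0.000724).

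**Figure D2:**
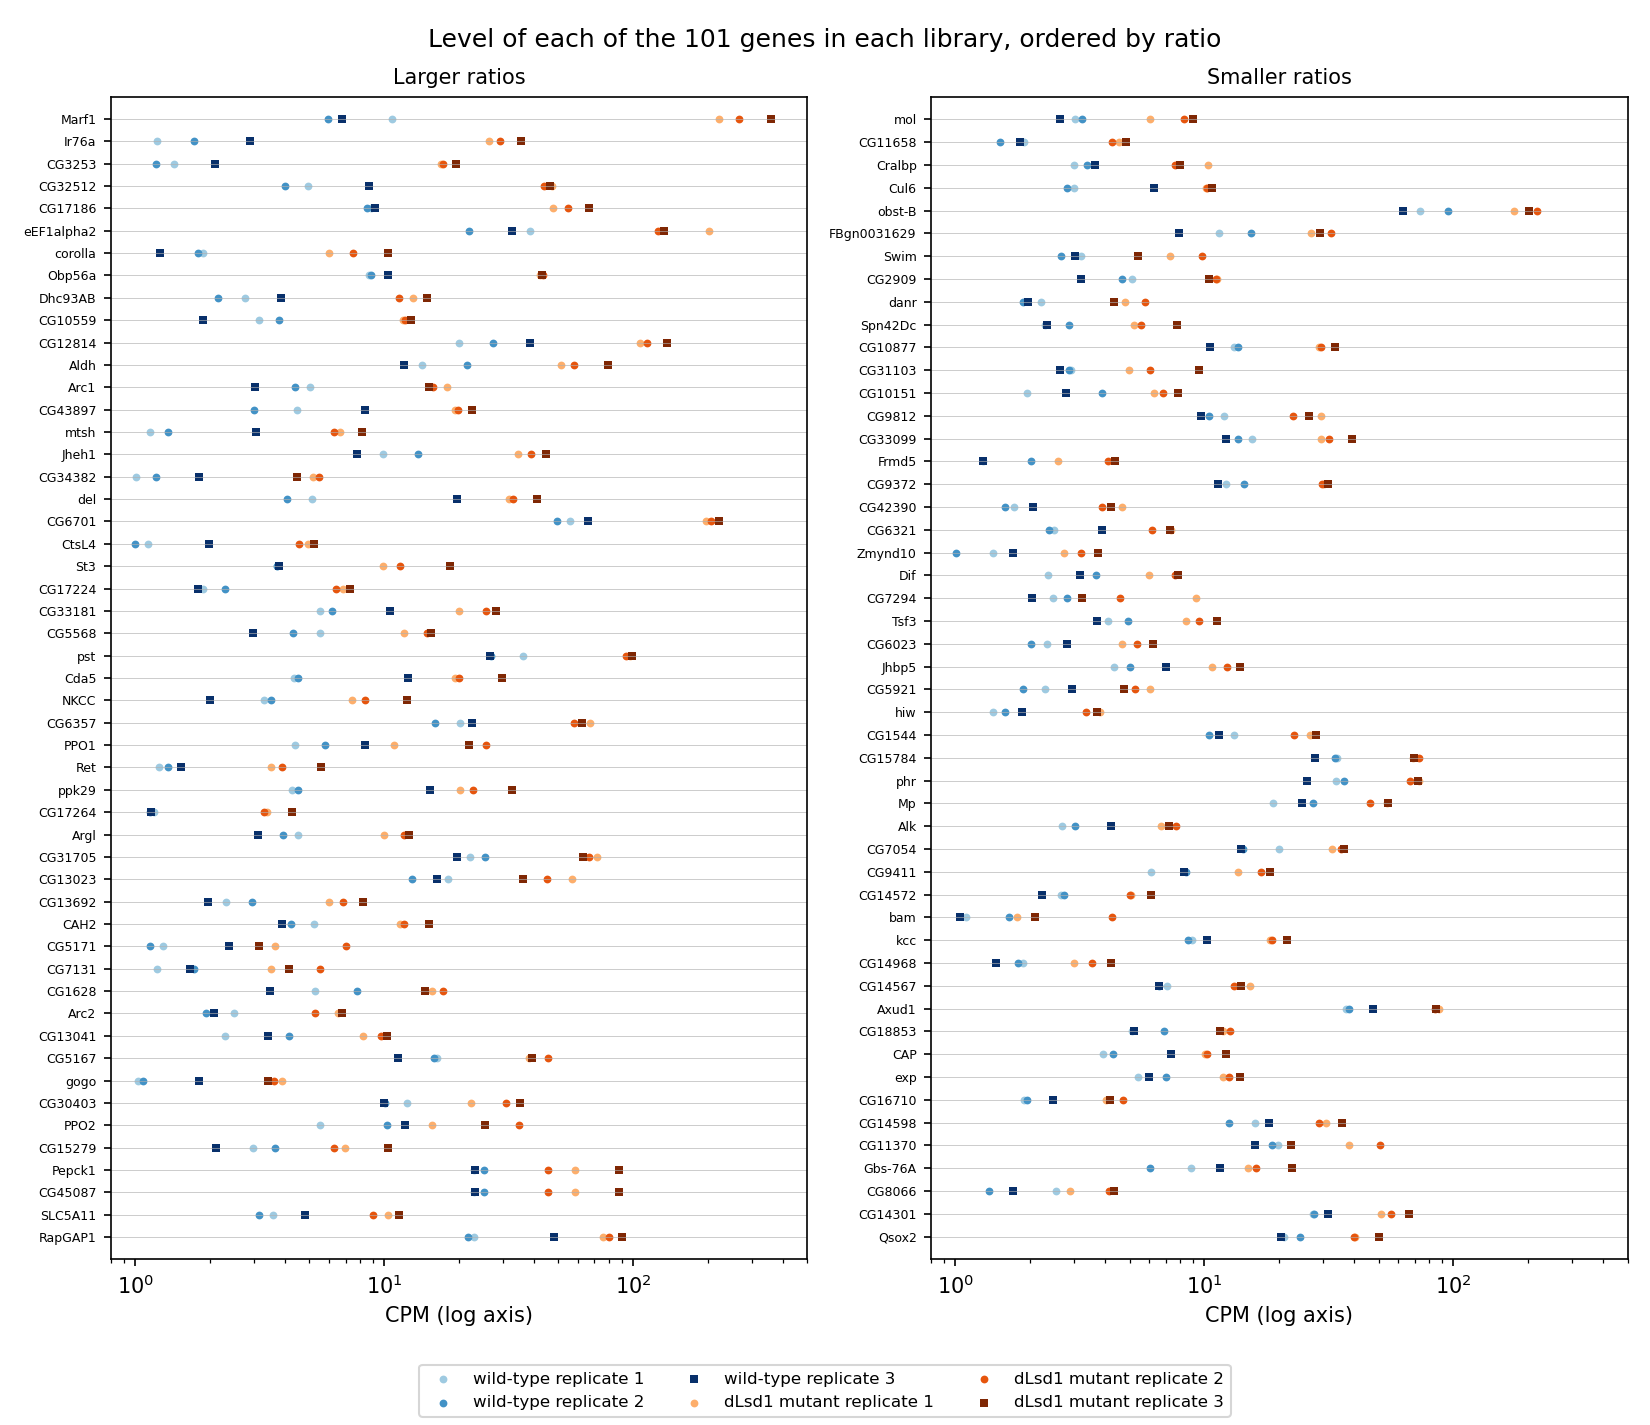
CPM (x axis, log scale) of each of the 101 genes in each of the 6 libraries, in 2 panels ordered by ratio from the top, with wild-type libraries in blue, dLsd1 mutant libraries in orange and brown, and squares for the libraries numbered 3. The colours do not overlap in any gene, as the rule requires, and the dark blue squares of wild-type replicate 3 lie well to the right of the other blue points in del, ppk29, Cda5 and RapGAP1.

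A set of enzymes of metabolism was included. Aldh (FBgn0012036; 2L, 9387389 to 9391567), the mitochondrial aldehyde dehydrogenase that clears acetaldehyde, had 14.1, 21.6 and 12.02 CPM in wild-type and 51.4, 57.7 and 79.0 CPM in the mutant, a ratio of 3.94 ± 1.54. Jheh1, a juvenile hormone epoxide hydrolase, had 9.9, 13.7 and 7.8 CPM in wild-type and 34.4, 39.1 and 44.6 CPM in the mutant, a ratio of 3.76 ± 1.18. In both genes wild-type replicate 2 was the highest of its group and mutant replicate 3 the highest of all libraries. Argl, the argininosuccinate lyase, had 4.5, 3.94 and 3.11 CPM in wild-type and 10.02, 12.01 and 12.6 CPM in the mutant. CAH2, a carbonic anhydrase, had 5.24, 4.23 and 3.88 CPM in wild-type and 11.6, 11.99 and 15.2 CPM in the mutant. Both enzymes were below 6 CPM in every wild-type library and above 10 CPM in every mutant library. St3, a sulfotransferase, had 3.71, 3.72 and 3.79 CPM in wild-type and 9.91, 11.6 and 18.3 CPM in the mutant, with a wild-type coefficient of variation of 1.16%, the smallest of the set, and the mutant libraries were spread more widely. mol, needed for the maturation of the oxidase Duox, had 3.01, 3.22 and 2.64 CPM in wild-type and 6.02, 8.24 and 8.97 CPM in the mutant.

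Of the 50 other detoxification and redox genes tested, 1 was upregulated and 5 downregulated, and their median log2 fold change was 0.02. Jheh3, of the same family as Jheh1, was the upregulated one, with 0.311, 0.215 and 0.109 CPM in wild-type and 1.25, 1.08 and 0.959 CPM in the mutant (log2 fold change 2.34, standard error 0.47, adjusted p = 0.0245). Jheh2, which lies 0.68 kb from Jheh1, had 413, 426 and 292 CPM in wild-type and 374, 414 and 453 CPM in the mutant and was not past the thresholds (log2 fold change 0.10, standard error 0.16, adjusted p = 0.758), with overlapping groups. Ugt302K1, a UDP-glucuronosyltransferase, had 162, 109 and 113 CPM in wild-type and 38.7, 40.9 and 49.1 CPM in the mutant (log2 fold change -1.62, standard error 0.18, adjusted p = 0.00148). The related Ugt49C1 had 3.35, 3.94 and 4.29 CPM in wild-type and 0.191, 0.448 and 0.282 CPM in the mutant (log2 fold change -3.65, standard error 0.35, adjusted p = 0.000775). In both genes every mutant library was below every wild-type library. Prx6c, a peroxiredoxin, had 2.1, 2.65 and 1.81 CPM in wild-type and 0.735, 0.542 and 0.846 CPM in the mutant (log2 fold change -1.65, standard error 0.31, adjusted p = 0.0186), and 3 of the 5 downregulated genes of the list were UDP-glycosyltransferases.

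Pepck1 (FBgn0003067; 2R, 18536767 to 18539416), the phosphoenolpyruvate carboxykinase of gluconeogenesis, had 22.9, 25.2 and 23.2 CPM in wild-type and 58.3, 45.7 and 87.7 CPM in the mutant, a ratio of 2.69 ± 0.918. CG45087 occupies the same position and had the same values to within 1 count per library, so the 2 cannot be told apart and the 101 hold at most 100 separate signals. Mutant replicate 3 was the highest in both, and without it the ratio of Pepck1 was 2.19. Of the 17 other genes of carbohydrate enzymes and sugar transport that were tested, 1 was upregulated and 2 downregulated. Ldh, lactate dehydrogenase, had 28.4, 23.4 and 29.1 CPM in wild-type and 9.55, 8.15 and 10.5 CPM in the mutant (log2 fold change -1.56, standard error 0.14, adjusted p = 0.000523), and Tret1-1, a trehalose transporter, had 10.9, 9.81 and 9.98 CPM in wild-type and 5.74, 3.77 and 6.2 CPM in the mutant (log2 fold change -1.01, standard error 0.20, adjusted p = 0.022), both lower in every mutant library, whereas the sugar transporter gene sut2 had 0.287, 0.358 and 0.327 CPM in wild-type and 0.789, 1.01 and 1.27 CPM in the mutant (log2 fold change 1.63, standard error 0.37, adjusted p = 0.0417). Fat body markers overlapped between the genotypes in their sum, as given above. Of that list, only Lsp1alpha was apart, with 0.574, 0.501 and 1.24 CPM in wild-type and 5.85, 3.30 and 2.00 CPM in the mutant. The 12 gut and Malpighian tubule markers summed to 0.0653 to 0.358 CPM in wild-type and 0.677 to 4.24 CPM in the mutant, without overlap. Mutant replicate 2 was the highest, and betaTry, Mal-A1, byn and Uro were at 0 throughout. Of these 12, only Amy-p and Amy-d were apart between the genotypes, near the floor with at most 0.636 and 0.327 CPM. The gap between the sums is therefore not a trait of the gut markers in general. The part of these tissues in the metabolic genes was not tested.

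Genes of immunity formed another group. PPO1 (FBgn0283437; 2R, 17887220 to 17889973) and PPO2 (FBgn0033367; 2R, 9042261 to 9044709), the prophenoloxidases of the crystal cells of the blood that make melanin, were both in the set. PPO1 had 4.4, 5.8 and 8.41 CPM in wild-type and 10.97, 25.7 and 21.9 CPM in the mutant, a ratio of 3.14 ± 1.61. PPO2 had 5.53, 10.3 and 12.2 CPM in wild-type and 15.6, 34.98 and 25.4 CPM in the mutant, a ratio of 2.72 ± 1.44. In both, mutant replicate 1 was the lowest mutant library, and the gap to the highest wild-type library was 1.3 times for PPO1 and 1.28 times for PPO2. The 11 haemocyte markers summed to 68.1 to 86.5 CPM in wild-type and 89.9 to 142 CPM in the mutant. Without PPO1 and PPO2 the other 9 summed to 54.3 to 65.9 CPM and 63.3 to 89.3 CPM, which overlapped, with NimC4 at 0 in every library. Within these 9, NimC1 was lower in every mutant library, with 2.32, 2.51 and 1.48 CPM in wild-type and 0.245, 0.73 and 0.761 CPM in the mutant. lz was higher in every mutant library, but at the floor with at most 0.212 CPM. The part of blood cells in these values was not tested.

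Dif, the NF-kappaB factor of Toll signalling, had 2.34, 3.65 and 3.16 CPM in wild-type and 5.96, 7.63 and 7.81 CPM in the mutant. Spn42Dc, a serpin, had 2.3, 2.87 and 2.33 CPM in wild-type and 5.23, 5.54 and 7.73 CPM in the mutant. pst (pastrel), known for resistance to viruses in flies, was one of the better expressed genes of the set with 36.1, 26.8 and 26.7 CPM in wild-type and 97.6, 93.3 and 99.02 CPM in the mutant, a ratio of 3.24 ± 0.595. The 3 genes were apart in every library, as the rule requires, Dif by the least with a gap of 1.63 times.

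Of the 43 other immune receptor and effector genes tested, 7 were upregulated and their median log2 fold change was 0.72. None was downregulated by edgeR, although 3 were lower at an unadjusted p below 0.05 and DESeq2 called 1 downregulated. lectin-28C had 0.981, 0.573 and 0.588 CPM in wild-type and 5.53, 7.63 and 7.13 CPM in the mutant (log2 fold change 3.16, standard error 0.28, adjusted p = 0.000518). Tep1, a thioester protein, had 0.574, 0.645 and 1.002 CPM in wild-type and 2.26, 4.31 and 4.4 CPM in the mutant (log2 fold change 2.23, standard error 0.36, adjusted p = 0.00975). Both were apart in every library. PGRP-SB1, a peptidoglycan recognition protein, had 0.646, 0.43 and 0.261 CPM in wild-type and 1.58, 3.13 and 2.37 CPM in the mutant (log2 fold change 2.36, standard error 0.43, adjusted p = 0.0174). Sr-CI, a scavenger receptor of haemocytes, had 0.837, 0.645 and 1.15 CPM in wild-type and 1.42, 4.29 and 4.46 CPM in the mutant (log2 fold change 1.86, standard error 0.46, adjusted p = 0.0583). Mutant replicate 1 was the lowest mutant library in these 4 and in Sr-CIV, as in PPO1 and PPO2, but the highest in the remaining called genes, PPO3 and Npc2b. In Toll and Imd signalling, 1 of the 22 others tested was upregulated and 1 downregulated, psh and Toll-9. psh, the protease Persephone, had 0.311, 0.43 and 0.327 CPM in wild-type and 0.98, 0.73 and 0.987 CPM in the mutant (log2 fold change 1.33, standard error 0.37, adjusted p = 0.0854), and its adjusted p was 0.117 with the replicate number as a block. Toll-9 had 1.08, 0.788 and 2.83 CPM in wild-type and 0.136, 0.0707 and 0.282 CPM in the mutant (log2 fold change -3.35, standard error 0.66, adjusted p = 0.0233). Of 35 other serine protease and serpin genes tested 3 were upregulated and 1 was downregulated. One of the 3 was SPE, which activates the Toll ligand and is among the 18 genes that met the numbers of the rule but were set aside by name. It had 4.35, 4.37 and 4.6 CPM in wild-type and 13.04, 14.2 and 14.2 CPM in the mutant (log2 fold change 1.60, standard error 0.12, adjusted p = 0.000233).

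Arc1 (FBgn0033926; 2R, 14357927 to 14360297) and Arc2, genes derived from the gag gene of a retrotransposon whose Arc1 protein forms capsids that carry RNA between cells, lie beside each other. Arc1 had 5.02, 4.37 and 3.03 CPM in wild-type and 17.9, 15.7 and 15.1 CPM in the mutant, a ratio of 3.92 ± 1.02. Arc2 had 2.49, 1.93 and 2.07 CPM in wild-type and 6.51, 5.28 and 6.77 CPM in the mutant, a ratio of 2.86 ± 0.53. The annotated pseudogene CR10102 between them showed wild-type counts of 25, 4 and 23 and mutant counts of 60, 59 and 61 (log2 fold change 1.66, standard error 0.35, adjusted p = 0.0307). As the 3 are similar in sequence, reads may be shared, and how multimapping reads were handled is not given in the sources used here.

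The 6 genes of cell surface receptors and signalling proteins had ratios of 2.09 to 3.14 (median 2.45, against 2.66 over the 101). Ret, a receptor tyrosine kinase, had 1.24, 1.36 and 1.52 CPM in wild-type and 3.51, 3.89 and 5.58 CPM in the mutant, a ratio of 3.14 ± 0.864. Alk, another receptor tyrosine kinase, had 2.68, 3.01 and 4.23 CPM in wild-type and 6.67, 7.66 and 7.19 CPM in the mutant, and its ratio was 2.17, or 1.98 without wild-type replicate 1. gogo, a receptor in axon guidance, had 1.03, 1.07 and 1.81 CPM in wild-type and 3.89, 3.6 and 3.41 CPM in the mutant. The groups were apart in all 3 genes, as the rule requires. Among the 16 other receptor tyrosine kinase genes tested 2 were upregulated, Ddr with 9.86, 8.24 and 12.2 CPM in wild-type and 16.2, 14.2 and 18.4 CPM in the mutant (log2 fold change 0.64, standard error 0.17, adjusted p = 0.073) and Nrk with 2.68, 2.58 and 2.53 CPM in wild-type and 3.92, 4.24 and 4.6 CPM in the mutant (log2 fold change 0.68, standard error 0.18, adjusted p = 0.0827, or 0.12 with the replicate number as a block), with a median log2 fold change of 0.06 for the 16. None was downregulated by edgeR or DESeq2, and 1 was lower at an unadjusted p below 0.05.

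hiw, a large ubiquitin ligase that limits synapse growth, had 1.41, 1.58 and 1.85 CPM in wild-type and 3.81, 3.34 and 3.69 CPM in the mutant. Its mutant level of 0.216 CPM per kb was the lowest of the set. RapGAP1, a GTPase activating protein of Rap1, had 23.01, 21.6 and 48.1 CPM in wild-type and 75.6, 80.3 and 90.5 CPM in the mutant, and wild-type replicate 3 was more than 2 times the other wild-type libraries, so that its ratio of 2.66 became 3.68 without that library. CAP, an adaptor protein of cell adhesion, had 3.92, 4.3 and 7.36 CPM in wild-type and 10.1, 10.2 and 12.2 CPM in the mutant. In CAP, too, wild-type replicate 3 lay nearest to the mutant range.

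Carriers of ions and solutes were represented by NKCC and kcc, both cation-chloride cotransporters, and by SLC5A11, a sodium-coupled solute transporter. NKCC had 3.3, 3.51 and 2.004 CPM in wild-type and 7.43, 8.41 and 12.4 CPM in the mutant, a ratio of 3.2 ± 1.26. kcc had 8.92, 8.6 and 10.3 CPM in wild-type and 18.3, 18.7 and 21.5 CPM in the mutant, and SLC5A11 had 3.59, 3.15 and 4.81 CPM in wild-type and 10.3, 9.05 and 11.4 CPM in the mutant. Mutant replicate 3 was the highest library of all 3 genes. Tsf3, a transferrin, had 4.11, 4.94 and 3.7 CPM in wild-type and 8.47, 9.52 and 11.2 CPM in the mutant.

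Genes of the extracellular matrix and of chitin included the most abundant gene per length. obst-B (FBgn0027600; 2L, 10032690 to 10038954), which encodes a chitin-binding protein, had 73.1, 94.98 and 62.9 CPM in wild-type and 174, 217 and 200.3 CPM in the mutant, a ratio of 2.56 ± 0.613. Its mutant level was 172 CPM per kb, against 67.01 CPM per kb in wild-type. Cda5, a chitin deacetylase, had 4.33, 4.51 and 12.5 CPM in wild-type and 19.2, 20.05 and 29.7 CPM in the mutant. exp, needed for chitin organisation in the trachea, had 5.38, 7.02 and 5.99 CPM in wild-type and 11.8, 12.5 and 13.9 CPM in the mutant. Mp, the collagen Multiplexin, had 18.9, 27.3 and 24.6 CPM in wild-type and 53.98, 46.2 and 54.8 CPM in the mutant. Wild-type replicate 3 was high for Cda5 only, where its gap to the lowest mutant library was 1.53 times. The 7 trachea markers summed to 1232 to 1358 CPM in wild-type and 1253 to 1301 CPM in the mutant, so these ranges overlapped. The sum hides opposite shifts of single genes, picked after their values were seen. Gasp had 131, 142 and 158 CPM in wild-type and 173, 204 and 214 CPM in the mutant. kkv was also higher in every mutant library, as was Osi7, at the floor with at most 0.109 CPM. serp had 232, 236 and 241 CPM in wild-type and 174, 162 and 145 CPM in the mutant. verm was also lower in every mutant library.

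Other members stood out by their level or size of change. eEF1alpha2 (FBgn0000557; 3R, 31738468 to 31743306), the tissue-restricted copy of the translation elongation factor, had 38.5, 21.99 and 32.6 CPM in wild-type and 202, 126 and 133 CPM in the mutant, a ratio of 4.95 ± 1.91, and mutant replicate 1 was the highest. Of the 7 other translation factors with tissue-restricted copies that were tested, edgeR called 0 in either direction, 0 had an unadjusted p below 0.05 and DESeq2 also called 0. phr, a photolyase that repairs ultraviolet damage, had 33.9, 36.3 and 25.8 CPM in wild-type and 72.9, 66.99 and 72.2 CPM in the mutant, a ratio of 2.21 ± 0.395. Of the 32 other DNA repair genes tested, none was upregulated by edgeR or DESeq2, and 1 was higher at an unadjusted p below 0.05. The downregulated one was phr6-4, the photolyase of the other photoproduct, with 27.8, 29.1 and 23.1 CPM in wild-type and 18.1, 17.3 and 17.8 CPM in the mutant (log2 fold change -0.62, standard error 0.12, adjusted p = 0.0211). The 2 photolyase genes thus lay on opposite sides. phr overlaps Prosalpha1, a proteasome gene with a near-identical copy, Prosalpha1R, at the same counts to within 3 per library, and Prosalpha1 had 77.3, 71.3 and 63.1 CPM in wild-type and 132, 140.2 and 124 CPM in the mutant (log2 fold change 0.87, standard error 0.12, adjusted p = 0.00504).

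Genes known only by an annotation number (a symbol that starts with CG) made up 50 of the 101 (49.5%), against 29.9% of the 7725 genes. None of the 18 genes set aside by name has such a symbol, while the 7725 still hold genes of those names. The 2 shares are therefore not like for like, and the first is raised by the naming rule. CG3253 (FBgn0041706; 2R, 24114398 to 24116359) had 1.44, 1.22 and 2.09 CPM in wild-type and 16.99, 17.2 and 19.4 CPM in the mutant, a ratio of 11.3 ± 3.35. CG32512 had 4.95, 4.01 and 8.69 CPM in wild-type and 47.2, 43.7 and 46.6 CPM in the mutant, with wild-type replicate 3 the highest of its group, and a ratio of 7.79 ± 3.29. CG17186 had 8.85, 8.52 and 9.17 CPM in wild-type and 47.6, 54.9 and 66.6 CPM in the mutant, a ratio of 6.37 ± 1.11. The lowest mutant library was 8.12, 5.03 and 5.19 times the highest wild-type library in CG3253, CG32512 and CG17186.

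CG6701 had 55.6, 49.5 and 65.8 CPM in wild-type and 197, 205.2 and 222 CPM in the mutant, a ratio of 3.65 ± 0.573, and it was among the most abundant. CG12814 had 19.95, 27.4 and 38.5 CPM in wild-type and 106, 114 and 137 CPM in the mutant, a ratio of 4.16 ± 1.47, while CG10559 had 3.13, 3.8 and 1.87 CPM in wild-type and 11.9, 12.2 and 12.8 CPM in the mutant, a ratio of 4.19 ± 1.4. Among the more abundant ones with smaller ratios were CG31705 with 22.1, 25.4 and 19.7 CPM in wild-type and 71.6, 66.5 and 63.1 CPM in the mutant and CG15784 with 34.1, 33.4 and 27.9 CPM in wild-type and 68.7, 72.8 and 69.5 CPM in the mutant. Axud1, a nuclear protein induced by Axin in mammals, had 37.01, 38.2 and 47.3 CPM in wild-type and 87.8, 84.1 and 84.8 CPM in the mutant, and its mutant libraries differed by a coefficient of variation of only 2.3%.

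The others with a symbol have a known or inferred role. Jhbp5, of the juvenile hormone binding protein family, had 4.33, 5.01 and 7.01 CPM in wild-type and 10.8, 12.3 and 13.8 CPM in the mutant. Gbs-76A, a glycogen-targeting subunit of protein phosphatase 1, had 8.8, 6.02 and 11.6 CPM in wild-type and 15.0, 16.1 and 22.4 CPM in the mutant. Mutant replicate 3 lay above the rest in both. Cralbp, a retinoid binding protein, had 2.99, 3.37 and 3.64 CPM in wild-type and 10.3, 7.61 and 8.01 CPM in the mutant. Cul6, a cullin, had 2.99, 2.79 and 6.25 CPM in wild-type and 10.2, 10.2 and 10.7 CPM in the mutant. Swim, a secreted protein that binds Wingless, had 3.18, 2.65 and 3.03 CPM in wild-type and 7.3, 9.8 and 5.41 CPM in the mutant. The remaining 27 genes, all known by a number only, had ratios of 2.04 to 3.31 (median 2.44), wild-type means of 1.53 to 19.6 CPM (median 4.31 CPM) and mutant means of 3.59 to 62.5 CPM (median 12.02 CPM), and in each the lowest mutant library was 1.60 to 2.56 times the highest wild-type library.

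The spread between replicates differed widely over the 101 genes. The coefficient of variation of the 3 mutant libraries had a median of 12.9% and ran from 1.27% to 55.6%, and it was above 30% in 10 genes. For the wild-type libraries the median was 18.1%, the range 1.16% to 90.4%, and 26 genes were above 30%. The largest mutant values belonged to CG7294, at 55.6% with 9.23, 4.57 and 3.21 CPM, to bam, at 49.8%, and to CG5171, at 45.8% with 3.65, 7.04 and 3.16 CPM. CG9372 was among the least variable, at 2.78%. Without mutant replicate 1 the ratio of CG7294 was 1.60.

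Wild-type replicate 3 was at least 1.5 times both other wild-type libraries in 15 of the 101 genes (14.9%), against 10.9% of the 7725 genes. These 15 were CAP, CG32512, CG33181, CG43897, CG5171, CG6321, Cda5, CtsL4, Cul6, Ir76a, RapGAP1, del, gogo, mtsh and ppk29. Each of the other 5 libraries exceeded both others of its genotype by as much in at most 4 genes. Mutant replicate 3 was the highest mutant library in 65 genes (64.4%), and it was the highest in 53.1% of the 7725 genes, so this ordering was also frequent outside the set.

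**Figure D3:**
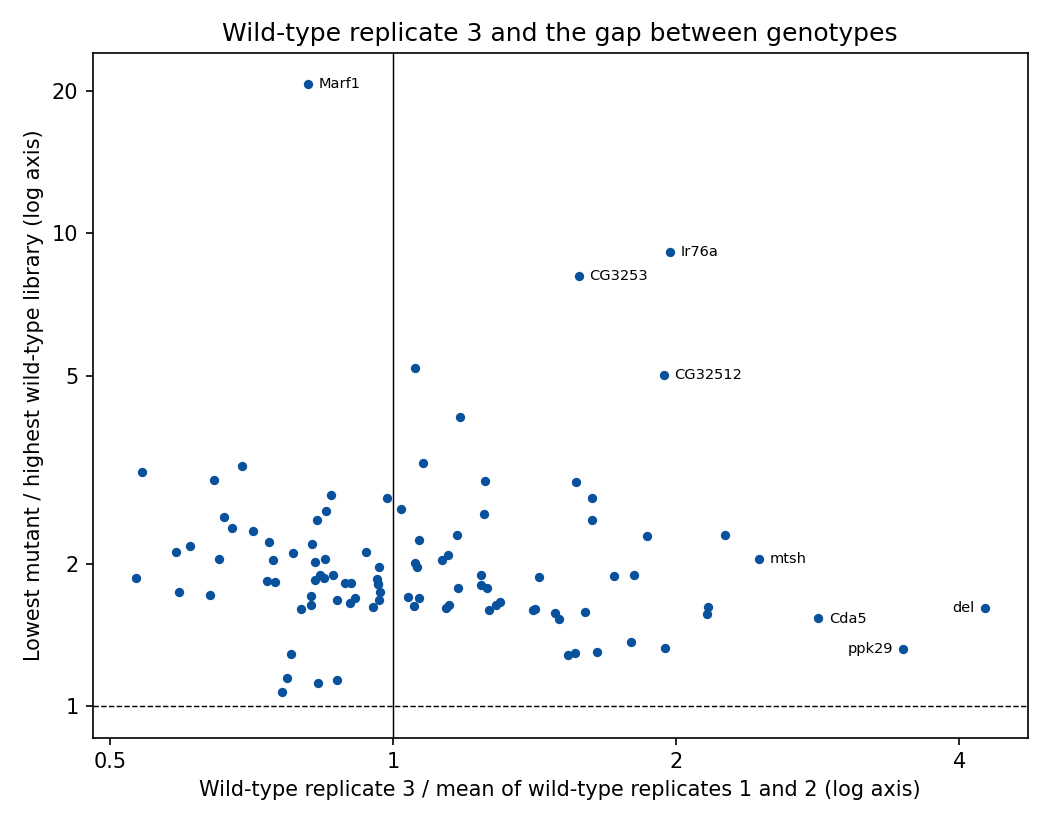
Ratio of wild-type replicate 3 to the mean of wild-type replicates 1 and 2 (x axis, log scale) against the lowest mutant library divided by the highest wild-type library (y axis, log scale), 1 point per gene. Points right of the vertical line were higher in replicate 3, del and ppk29 farthest, and Marf1, Ir76a and CG3253 had the widest gaps.

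At the fold threshold the genes just inside were Qsox2, CG14301 and CG8066, at ratios of 2.003, 2.02 and 2.03. Just outside were PLCXD, CG7997 and CG44245, at 1.996, 1.993 and 1.993. At the wild-type minimum CtsL4, Zmynd10 and CG34382 were inside, with lowest wild-type levels of 1.003, 1.003 and 1.005 CPM, and CG31176, CG14253 and CG13678 were outside, with 0.981, 0.958 and 0.933 CPM. These genes differ little in either measure, and the choice of the threshold decides on which side they fall.

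In the test over all genes, 93 of the 101 were upregulated, against 4.32% of all genes tested (6.55% called in either direction, 2.23% downregulated) and 2.59% of the 7725 genes at 1 CPM or more, of which 11.2% had every mutant library above every wild-type library. Since the same comparison chose them, nothing is read from this count. The 8 that were not past the thresholds were bam, CG7294, PPO2, ppk29, CG11370, CG8066, Cda5 and del. With the replicate number as a block 98 were past them, but CG5171 was not. When libraries were left out in turn the count was 72 without mutant replicate 2 and 98 without wild-type replicate 3.

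The rule itself was met by 173 genes when wild-type replicate 3 was left out, and 96 of the 101 were among them. Without the other libraries it was met by 101 to 117 genes, and 82 of the 101 met it in each of the 6 selections that left out 1 library.

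The genes were spread over the chromosome arms. There were 22 on 2L, 25 on 2R, 21 on 3L, 22 on 3R, 10 on X and none on 4, shares of 21.8%, 24.8%, 20.8%, 21.8%, 9.90% and 0% against 17.1%, 19.9%, 19.5%, 24.0%, 16.9% and 0.803% of the 7725 genes. The gene listed only by its identifier, FBgn0031629, had no match in the annotation used and had 11.4, 15.3 and 7.91 CPM in wild-type and 26.7, 32.3 and 29.2 CPM in the mutant. gogo was the member nearest to the deletion, 38.6 kb from Su(var)3-3 on 3L, followed by Ir76a at 423 kb and CG9372 at 618 kb. Exonic length had a median of 2078 bp against 2167 bp, and the median number of transcripts was 2 in both.

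Neighbouring genes were examined because several members lie beside each other. Of the 100 with a position, 25 had at least 1 flanking gene that was upregulated by edgeR, compared with 6.36% of the other genes at 1 CPM or more. Reads on overlapping genes can be counted for both, as strand handling in the counting is not given. With only flanking genes that do not overlap the member, the numbers were 18 of 100 and 5.18%. No test of this difference was made, since the members were chosen by the same contrast that gives the calls. The count depended on the libraries, being 30 of 100 (14.8% of the other genes) without wild-type replicate 3, 12 (3.54%) without mutant replicate 1, 10 (2.65%) without mutant replicate 2 and 12 (3.10%) without mutant replicate 3. A flanking gene was downregulated for 4 of the 100, and for 4.05% of the other genes.

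Pairs of members made up part of this. They were CG17224 and CG17264 (0.2 kb apart), Frmd5 and CtsL4 (7.04 kb), CG15279 and mol (124 kb), and Pepck1 and CG45087, which overlap. Between Arc1 and Arc2 lies CR10102, which is not a member and was the upregulated flanking gene counted for both. CG17224 had 1.87, 2.29 and 1.79 CPM in wild-type and 6.86, 6.43 and 7.33 CPM in the mutant, and CG17264 had 1.2, 1.15 and 1.15 CPM in wild-type and 3.38, 3.3 and 4.29 CPM in the mutant. Frmd5 had 1.29, 2.01 and 1.29 CPM in wild-type and 2.59, 4.1 and 4.37 CPM in the mutant, and CtsL4 had 1.12, 1.003 and 1.98 CPM in wild-type and 4.93, 4.55 and 5.24 CPM in the mutant. In both pairs the 2 genes were higher in every mutant library, as the rule requires.

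Next to gogo, the phosphatase gene rdgC, 3.31 kb away, held 0 reads in all wild-type libraries but 64, 50 and 47 in mutant replicates 1 to 3 (adjusted p = 0.00225 by edgeR). Beside danr, a transcription factor gene with 2.2, 1.86 and 1.96 CPM in wild-type and 4.79, 5.79 and 4.34 CPM in the mutant, lobo (29.7 kb away) held 0 reads in all wild-type libraries but 27, 29 and 24 in mutant replicates 1 to 3, and Bili, 1.36 kb away, showed wild-type counts of 1, 1 and 9 and mutant counts of 19, 26 and 25. CG7054, with 19.95, 14.3 and 13.98 CPM in wild-type and 32.6, 35.4 and 36.3 CPM in the mutant, lies 0.096 kb from Pebp1, with wild-type counts of 9, 1 and 7 and mutant counts of 20, 38 and 27. Among these, rdgC, lobo and Prosalpha1 were called in each fit that left out 1 library, Pebp1 in 4 of the 6, Frmd5 and CR10102 in 3 and Bili in 1. Bili, lobo, Pebp1 and rdgC lay near the floor of detection in wild-type.

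Other neighbours went the opposite way. Mrp5, 0.296 kb from CG17186, had 17.7, 18.98 and 18.2 CPM in wild-type and 0.871, 0.895 and 0.592 CPM in the mutant (log2 fold change -4.56, standard error 0.19, adjusted p = 8.37e-06), so that the 2 adjacent genes were apart without overlap in opposite directions. CHKov1, 7.04 kb from CG10559, had 28.4, 28.7 and 85.8 CPM in wild-type and 4.14, 5.3 and 5.08 CPM in the mutant (log2 fold change -3.34, standard error 0.53, adjusted p = 0.0233). Timp, the inhibitor of matrix metalloproteinases, 14.3 kb from CG12814, had 16.4, 15.9 and 12.6 CPM in wild-type and 8.003, 8.88 and 8.68 CPM in the mutant (log2 fold change -0.84, standard error 0.14, adjusted p = 0.0108). In the fits that left out 1 library, CHKov1 was not called without mutant replicate 3 and the other 2 were called in all 6. In all 3 the mutant libraries were below every wild-type library.

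**Figure D4:**
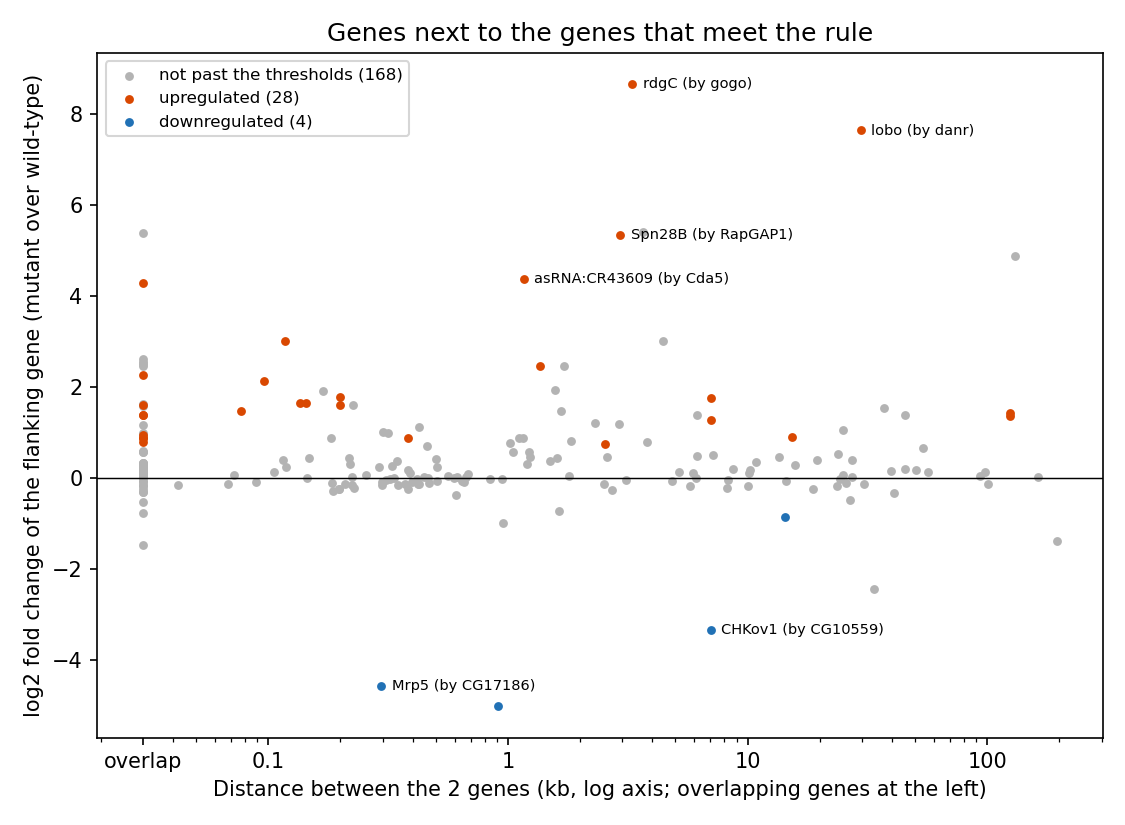
log2 fold change (mutant over wild-type, y axis) of the genes that flank each member, against the distance between the 2 genes in kb (x axis, log scale, overlapping genes at the left), coloured by the edgeR call. Of the 200 flanking positions 28 were upregulated and 4 downregulated, and the values of rdgC, lobo and Spn28B depend on the fitting because their wild-type counts were 0.

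Over all 19 lists together, 577 genes that are not among the 101 were tested, of which 40 were upregulated (6.93%) and 26 downregulated (4.51%), with a median log2 fold change of 0.10 against -0.02 over all genes. It was 94 upregulated without wild-type replicate 3 and 14 without mutant replicate 2. Of the 66 calls 26 held whichever of the 6 libraries was removed, 13 of them upregulated. Among the genes named above, Gr64a, Or71a, Irk1, ppk18, Sr-CI, Sr-CIV, PPO3, Npc2b, psh, Ddr and Nrk were called in at most 2 of these 6 fits, phr6-4, ppk11, ppk16 and sut2 in 3, Toll-9 in 4, and Jheh3 and Tret1-1 in 5, Jheh3 not without mutant replicate 2 and Tret1-1 not without wild-type replicate 1. The upregulated count was 19, 23 and 22 without wild-type replicate 1, mutant replicate 1 and mutant replicate 3. The downregulated count was 16 without wild-type replicate 1 and 17 without mutant replicate 2. The lists that held none of the 101 genes were those of ABC transporters, cell surface proteins, clock, disc stress, ecdysone and juvenile hormone response, histone demethylases, lipid metabolism and peptide and amine receptors. Of the 20 genes on the list named for histone lysine demethylases and partners, 1 was upregulated and 2 were downregulated. Of the 2, 1 was the deleted gene itself, Su(var)3-3. The other was Hira, a histone chaperone gene, with 146, 138 and 115 CPM in wild-type and 60.6, 58.8 and 64.4 CPM in the mutant (log2 fold change -1.15, standard error 0.12, adjusted p = 0.00117 by edgeR). The upregulated one was stwl, with 34.2, 25.1 and 38.7 CPM in wild-type and 51.5, 59.2 and 60.7 CPM in the mutant (log2 fold change 0.77, standard error 0.17, adjusted p = 0.0353 by edgeR). It was called in 3 of the 6 fits that left out 1 library. The study names Hira and stonewall (stwl) among the genes deregulated in these data, and the lists were chosen with earlier results known. The count is therefore no measure of demethylases and their partners.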

How the data were processed

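RNA-seq was done on 3 wild-type and 3 dLsd1 mutant samples. The authors trimmed the stranded paired-end reads (Trimmomatic 0.36), aligned them to dm6 (STAR 2.5.2a), removed duplicates (Picard) and deposited whole-number counts per gene and transposable element family, without normalization, in tables whose format is that of TEToolkit. Strand setting, treatment of multimapping reads and whether these tables were counted after the removal of duplicates are not given in the sources used here. Each table had 17642 lines, 171 of them element families, and 17249 of the 17471 genes matched the BDGP6 annotation, release 115 (dm6 coordinates).

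Counts were divided by the library total to give CPM. The deposited counts of genes and element families with at least 10 counts over the 6 libraries were fitted with edgeR 4.0.16 (quasi-likelihood test, TMM, limma 3.58.1, R 4.3.3) in 1 model, with Benjamini-Hochberg adjustment over all of them, and a call needed a log2 fold change above 0.6 in size and an adjusted p below 0.1. The standard error was taken as the size of the fitted log2 change over the root of its F statistic. The fitting was tested on simulated data. DESeq2 1.42.0 and other filters, scalings, thresholds and samples were alternatives. Tables and plots were made with pandas 2.3.3 and matplotlib.

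The members, the 19 gene lists, the 9 marker lists and the rule for named genes were chosen with earlier results of these data known, and family patterns in the lists were trimmed after the matched names were seen. The rule named the 12 members with the largest ratio, the 12 with the highest mutant level, those at the thresholds and those on a list. It also named the 3 most and 3 least variable members, and up to 4 called genes per list. Not all of these called genes are given above. Among those left out are Dscam4, per and TkR86C, of lists that hold none of the members, and Ca-alpha1D and Jon74E. Other members, flanking genes and the grouping by role were picked after their values were seen. Replicates of 1 number deviated together from their group means (correlations of 0.418, 0.197 and 0.46 over 7680 genes). Wild-type replicate 2, however, correlated more with mutant replicate 1 (0.339) than with mutant replicate 2, so the pairing of number 2 is unclear. The numbers were taken as pairs for the fit with the replicate number as a block. The p-values given come from the fit without that block unless stated. Within each genotype, all libraries differed beyond sampling noise and counted as separate replicates.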

Additional observations from a re-analysis of the deposited data

How the results depend on the processing

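Rescaling kept most of the 101 genes: 96 met the rule with TMM sizes, 94 with DESeq2 size factors and all 101 when library totals excluded element families, and the median log2 ratio of the 7725 genes moved by under 0.1 in each. The thresholds mattered more, with 152 genes at a wild-type minimum of 0.5 CPM, 266 at a ratio of 1.5 and 32 at a ratio of 3. Leaving out 1 library gave 101 to 173 members, the highest without wild-type replicate 3, 72 to 98 members past the gene thresholds, 373 to 1588 differentially expressed genes (710 with all libraries, 1588 without wild-type replicate 3, 435 without wild-type replicate 1, 373 without mutant replicate 2 and 428 without mutant replicate 3), 14 to 94 listed others upregulated, 16 to 37 downregulated, and 10 to 30 members with a flanking upregulated gene, an alternative chosen after seeing the data. With the replicate number as a block, 759 genes, 98 members and 18 members with such a flanking gene were called, and the pairing moved no count by over 1.5 times. Of the 710 genes 657 were called again with the block, and among the called genes named in the text CG5171 was not, nor were Nrk, Sr-CIV, psh, ppk18 and Spn28B (adjusted p of 0.117 to 0.153 by edgeR for these 5). Of 320 ratios of single named members under other scalings or without 1 library, 319 moved by less than the spread between replicates, the exception being ppk29. None reversed, but the rule puts every mutant library above every wild-type library, so removing a library could not reverse a ratio. Removing 1 of 3 values also seldom moves a mean beyond their spread, so nothing is read from these counts. Depth limits the genes with few wild-type counts, and most in wild-type replicate 2.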
